A study of Mus musculus with 2 samples.

Results

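Thbs4, Tnmd, Cilp, Cpxm2, Comp, Chad, Scx and Mkx, 8 of the 17938 genes listed for either plate, were taken by name as genes of tendon and ligament and followed through single αSMA-labeled cells of the mouse periosteum. Their rows were read in the unique molecular identifier (UMI) matrices, in which each UMI stands for 1 captured transcript molecule. Wells with 200 or more genes were kept as cells, and were split by time point, by whether they held an Fmod UMI (Fmod+ or Fmod- cells) and by whether they held an Rgs5 UMI (Rgs5+ or Rgs5- cells). All 8 genes were detected. Thbs4, Tnmd, Cilp and Cpxm2, like Fmod itself, stand in a list of cluster markers that the study derived from these same cells. Neither their presence nor a higher level in Fmod+ cells is thus independent evidence. Scx, Mkx, Comp and Chad are not in that list.

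In αSMACreER/Ai9 mice, tamoxifen activates Cre in cells that use the αSMA (Acta2) promoter, and the Ai9 allele then marks these cells and their progeny with Tomato (Tom). Tom+ cells from tibia and femur periosteum, released by a 30 min collagenase and hyaluronidase digest, were sorted 1 per well after 2 doses of 75 mg/kg tamoxifen. Mice of the αSMACreER/Ai9/Col2.3GFP genotype gave the 2-day cells (2 days of chase, age 10.3 weeks) and the 6-week cells (43 days of chase, age 14.4 weeks). For the 13-week cells (96 days of chase, age 20.1 weeks) the genotype was αSMACreER/Ai9/R26-M2rtTA/TetOP-H2B-GFP, and these mice had also received doxycycline. Every time point was 1 pool of 2 to 3 female mice. The 2-day and 13-week cells shared a plate and the 6-week cells had another. At 13 weeks strain, doxycycline, age, chase time and pool cannot be told apart, and at 6 weeks plate, age, chase time and pool cannot. There is thus no replicate for a time point and no test between them. All intervals are 95% intervals that cover counting error only.

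Scleraxis (Scx), a basic helix-loop-helix protein, and mohawk (Mkx), a homeodomain protein, are the transcription factors best known for tendon formation, and tenomodulin (Tnmd), a membrane glycoprotein of tendon cells, is a known target of scleraxis. The thrombospondins Thbs4 and Comp and the leucine-rich repeat protein chondroadherin (Chad) are matrix proteins of tendon and cartilage that bind collagen or cells. Cilp is a secreted matrix protein of cartilage and fibrous tissue, and Cpxm2 is a secreted member of the carboxypeptidase family. The fibrous layer of the periosteum is rich in collagen and is the layer into which tendons and ligaments insert. Fibromodulin (Fmod) is a small proteoglycan that binds fibrillar collagen, and Rgs5 is a signaling regulator widely used to mark pericytes.

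The promoters of the 4 genes with the highest levels are shown because scleraxis, like other basic helix-loop-helix proteins, binds E-boxes. Each stretch holds the 250 bases before and the 50 bases after the start of the gene in RefSeq (GRCm38.p6), read 5′ to 3′ on the strand of the gene, and capitals mark the E-box letters CANNTG, which read the same on both strands. Of the 8 genes, 5 were matched by symbol in the promoter table.
Thbs4 promoter, chr13:92794769-92795068, minus strand: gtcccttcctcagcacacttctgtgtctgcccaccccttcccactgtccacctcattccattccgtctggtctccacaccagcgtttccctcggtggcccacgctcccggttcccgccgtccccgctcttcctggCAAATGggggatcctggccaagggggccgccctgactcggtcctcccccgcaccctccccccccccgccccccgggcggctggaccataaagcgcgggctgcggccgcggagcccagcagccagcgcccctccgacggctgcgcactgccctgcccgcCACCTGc
Tnmd promoter, chrX:133850758-133851057, plus strand: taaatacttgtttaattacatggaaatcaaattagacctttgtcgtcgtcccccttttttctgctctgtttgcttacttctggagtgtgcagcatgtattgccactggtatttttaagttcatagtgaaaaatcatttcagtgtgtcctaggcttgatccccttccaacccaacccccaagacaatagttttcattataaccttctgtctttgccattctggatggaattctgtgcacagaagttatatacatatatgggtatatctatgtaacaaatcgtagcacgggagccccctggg
Cilp promoter, chr9:65264930-65265229, plus strand: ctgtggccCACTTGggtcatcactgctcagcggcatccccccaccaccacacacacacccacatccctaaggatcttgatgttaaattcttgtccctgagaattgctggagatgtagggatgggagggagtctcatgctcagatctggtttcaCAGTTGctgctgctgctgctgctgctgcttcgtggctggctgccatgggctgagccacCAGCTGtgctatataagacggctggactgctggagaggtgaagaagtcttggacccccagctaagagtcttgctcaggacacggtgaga
Cpxm2 promoter, chr7:132154692-132154991, minus strand: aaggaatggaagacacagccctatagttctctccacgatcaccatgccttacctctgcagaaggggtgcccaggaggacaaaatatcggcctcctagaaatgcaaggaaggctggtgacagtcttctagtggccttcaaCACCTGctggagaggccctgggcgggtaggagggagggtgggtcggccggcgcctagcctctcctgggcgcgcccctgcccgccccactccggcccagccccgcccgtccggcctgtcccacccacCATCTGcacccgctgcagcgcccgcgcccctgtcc
The letters occurred 2 times in the Thbs4 stretch, 0 times in Tnmd, 3 times in Cilp and 2 times in Cpxm2, and 1 time in the stretch of Chad, the fifth gene matched. For comparison, 72.3% of 32851 promoters of the same length held at least 1 match, at 1.39 matches per promoter. The narrower form CATCTG, searched on both strands and itself an E-box, was found 1 time, in Cpxm2, and in 17.2% of all promoters. A match of letters describes these stretches and is no measure of binding.

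In GENCODE release M21 on GRCm38 all 8 are protein-coding. Thbs4 lies on chromosome 13 (92751590 to 92794818, minus strand), Tnmd on chromosome X (133850980 to 133865577, plus strand), Cilp on chromosome 9 (65265180 to 65280605, plus strand) and Cpxm2 on chromosome 7 (132032687 to 132154739, minus strand). Comp lies on chromosome 8 (70373558 to 70382066, plus strand), Chad on chromosome 11 (94565047 to 94569127, plus strand), Scx on chromosome 15 (76457452 to 76459458, plus strand) and Mkx on chromosome 18 (6934518 to 7004780, minus strand). Scx overlaps the opposite-strand gene Bop1, which had 5 UMIs and none in a cell with Scx, and Chad overlaps the opposite-strand gene Acsf2, which had 0 UMIs. Cpxm2 overlaps Fgfr2 on the same strand, which had 21 UMIs in 16 cells, 4 of them with Cpxm2, and the antisense gene Gm15677, which had 2 UMIs. Whether counting used strand is not given in the sources used here, and without it reads from opposite-strand neighbors cannot be told apart.

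The 503 kept cells (181, 189 and 133 for the 2-day, 6-week and 13-week groups) held 445796 UMIs, from 246 to 3928 per cell with a median of 727. The plates shared 216 well barcodes, which is the number of 6-week wells used. Acta2 itself was seen in 21.3% of the cells. Of all detections of a gene in a cell, 81.3% rested on 1 UMI, so that a gene without a UMI is not shown to be absent from a cell. Fmod+ cells numbered 257 and Fmod- cells 246, with medians of 789 and 667 UMIs. Of the 118 Rgs5+ cells, 34 were also Fmod+, which left 223 cells with Fmod only, 84 with Rgs5 only and 162 with neither. Fmod+ cells made up 58.6% of the 2-day cells, 43.9% of the 6-week cells and 51.1% of the 13-week cells.

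The 6 genes for membrane or secreted proteins were well detected and the transcription factors were rare. Levels are UMIs of the gene per 10000 UMIs pooled over all cells of a class. Only the 3′ end of a transcript was counted, so a level does not grow with transcript length. Other differences in capture between genes were not tested, so an order of genes is one of counted UMIs. Thbs4 was highest, with 1373 UMIs in 230 cells and a level of 30.8 (interval 29.2 to 32.5). Tnmd followed with 750 UMIs in 177 cells and a level of 16.8, Cpxm2 with 653 UMIs in 159 cells and a level of 14.6, and Cilp with 444 UMIs in 159 cells and a level of 9.96. Chad and Comp were lower, at 5.83 from 260 UMIs and 3.81 from 170 UMIs. Scx had 60 UMIs in 44 cells, a level of 1.35, and Mkx had 26 UMIs in 20 cells, a level of 0.58. Scx and Mkx together made up 86 of the 3736 UMIs of the 8 genes.

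All 8 genes were higher in Fmod+ than in Fmod- cells, at least 2-fold in 8 of 8, where 6.78% of the 3793 genes with 20 or more UMIs were at least 2-fold higher. At 4-fold the count was 7 of 8, with Comp below it, and the background was 1.61%. Their summed level was 136 in Fmod+ cells (132 to 141) and 17.9 in Fmod- cells (16.1 to 19.9), a ratio of 7.63 (6.83 to 8.53). It was 4.79 with classes called at 300 UMIs and 11.6 with read counts. The median log2 ratio of the 8 was 2.60, against -0.08 over all genes tested. No test stands behind these ratios, since cells of 1 pool are not replicates. Thbs4, Tnmd, Cilp and Cpxm2 stand with Fmod in the study's marker list, so their part of this result is not independent evidence. Outside that list, Scx, Mkx, Comp and Chad had ratios of 6.05, 6.12, 3.88 and 5.90.

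Over all time points Tnmd had the highest ratio of the 8, with 28.2 UMIs per 10000 in Fmod+ cells and 2.58 in Fmod- cells, a ratio of 10.9 (8.23 to 14.8). Only 5 of the 3793 genes had a higher ratio. That order did not hold throughout, since Chad had a higher ratio than Tnmd at 2 days (18.2 and 14.3), Cpxm2 and Thbs4 at 13 weeks (9.39, 8.68 and 6.85 for Tnmd), and Cpxm2 with classes called at 300 UMIs (6.79 and 4.91). Cpxm2 stood at 24.2 and 2.73, a ratio of 8.86 (6.70 to 11.9), and Thbs4 at 50.5 and 6.06, a ratio of 8.34 (6.91 to 10.1). The ratio of Cilp was 5.21 (3.95 to 6.97), from levels of 15.5 and 2.98. These 4 genes carried most of the sum, and Thbs4 alone gave 37.0% of the UMIs of the 8 genes in Fmod+ cells and 33.9% in Fmod- cells.

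Chad and Comp, which cartilage also makes, had ratios of 5.90 (4.04 to 8.88) and 3.88 (2.59 to 6.01). At 2 days these were 18.2 (6.06 to 89.8) and 9.29 (3.01 to 46.5), each resting on 3 UMIs in Fmod- cells. Their levels were 9.24 and 1.57 for Chad and 5.69 and 1.47 for Comp. Chondrocyte genes were low in the same cells but not lower than elsewhere. The 10 of 12 listed markers that the matrices hold, among them Col2a1, Sox9, Hapln1 and Matn3, summed to 1.41 UMIs per 10000 in Fmod+ cells and 0.66 in Fmod- cells, and were in 8.95% and 2.85% of them. The sum was 1.67 in cells with Comp and 1.41 in cells with Chad. The part of these genes in the Comp and Chad values was not tested. Col10a1, Col9a3 and Matn1 were at 0 UMIs, and Col2a1 had 16 UMIs in 11 cells.

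The factors followed the same direction on few molecules. Scx had 53 UMIs in Fmod+ cells, a level of 2.14, and 7 in Fmod- cells, a level of 0.35, which gives a ratio of 6.05 (2.74 to 15.8). Mkx had 23 and 3 UMIs, levels of 0.93 and 0.15, and a ratio of 6.12 (1.85 to 31.9). The intervals of both factors hold the ratios of all 6 other genes, so a difference between factors and matrix genes in this ratio was not detectable at this depth. Summed, the factors had a ratio of 6.07 (3.13 to 13.2) and the 6 other genes one of 7.67 (6.86 to 8.60).

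In order of level within Fmod+ cells the genes ran Thbs4, Tnmd, Cpxm2, Cilp, Chad, Comp, Scx and Mkx. The pooled intervals of Tnmd and Cpxm2 met, and over the 3 time points the levels of Tnmd and Cpxm2, of Chad and Comp, and of Comp and Scx overlapped (Comp reached down to 2.60 and Scx up to 2.67). The other neighbors in this order did not overlap over the time points.

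**Figure D1:**
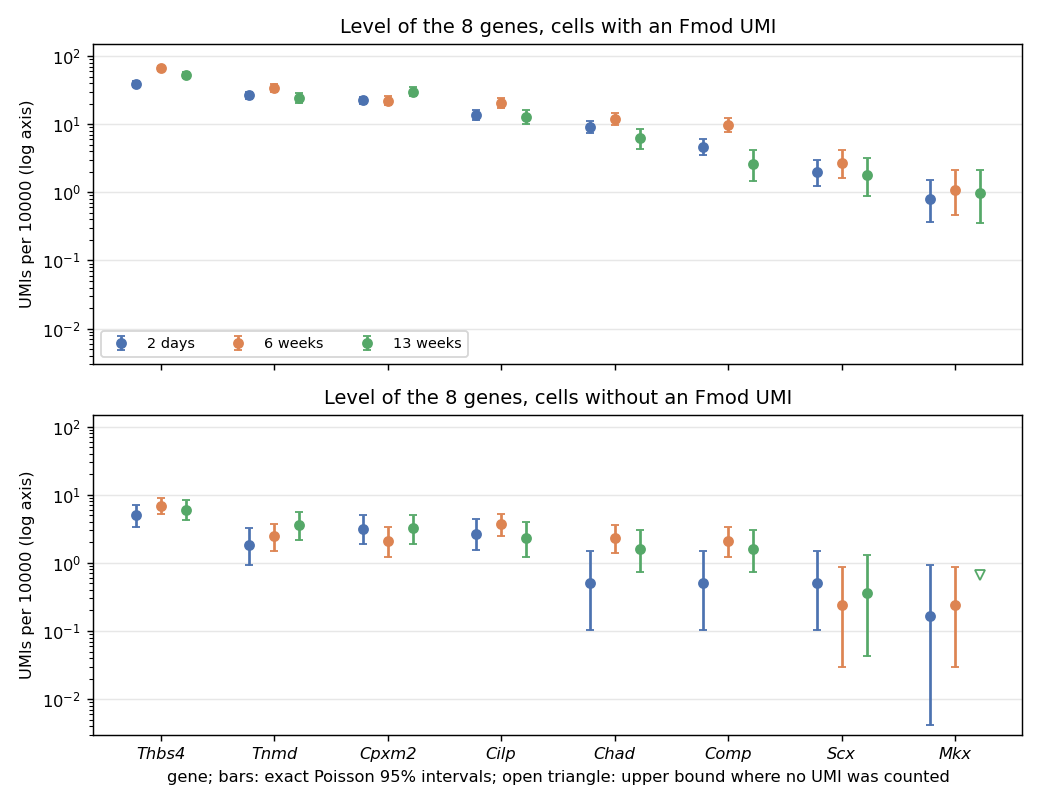
UMIs per 10000 on a log axis for the 8 genes at 2 days, 6 weeks and 13 weeks, above in Fmod+ cells and below in Fmod- cells, with exact Poisson 95% intervals. Every gene lay higher in the upper panel at every time point, from Thbs4 at 39.2 to 65.9 down to Mkx at 0.81 to 1.07, and Mkx had no UMI in Fmod- cells at 13 weeks.

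The direction held within each time point. At 2 days, 7 of the 7 genes with 20 or more UMIs were at least 2-fold higher in Fmod+ cells (background 14.0%), and at 6 weeks again 7 of 7 (background 8.76%). At 13 weeks it was 5 of 6 (background 13.2%), and the sixth, Comp, had levels of 2.60 in Fmod+ and 1.60 in Fmod- cells, a ratio of 1.62 (0.68 to 4.17). Summed over the 8 genes the ratio was 8.21 (6.60 to 10.3) in the 2-day cells, 8.44 (7.16 to 10) in the 6-week cells and 7.03 (5.73 to 8.70) in the 13-week cells. These intervals overlapped, so the contrast between Fmod+ and Fmod- cells did not differ between time points beyond counting error.

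The levels also differed with the number of Fmod UMIs. The 93 cells with exactly 1 Fmod UMI had a summed level of 34.8 (31.1 to 38.8), nearer to the 17.9 of Fmod- cells than to the 142 (133 to 152) of the 75 cells with 2 to 4. The 89 cells with 5 or more reached 232 (223 to 242). Thbs4 stood at 6.06, 13.2, 54.0 and 84.9 in the 4 steps and Tnmd at 2.58, 6.01, 29.1 and 49.3. Comp did not follow from 0 to 1 Fmod UMI, with 1.47 (0.98 to 2.10) and 0.86 (0.37 to 1.69), and had 112 of its 170 UMIs in cells with 5 or more. Scx was level over the last 2 steps, at 3.38 (2.06 to 5.22) and 2.72 (1.78 to 3.99). Median depth was 667, 757, 754 and 906 UMIs in the 4 steps, and its part in this gradient was not tested.

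**Figure D2:**
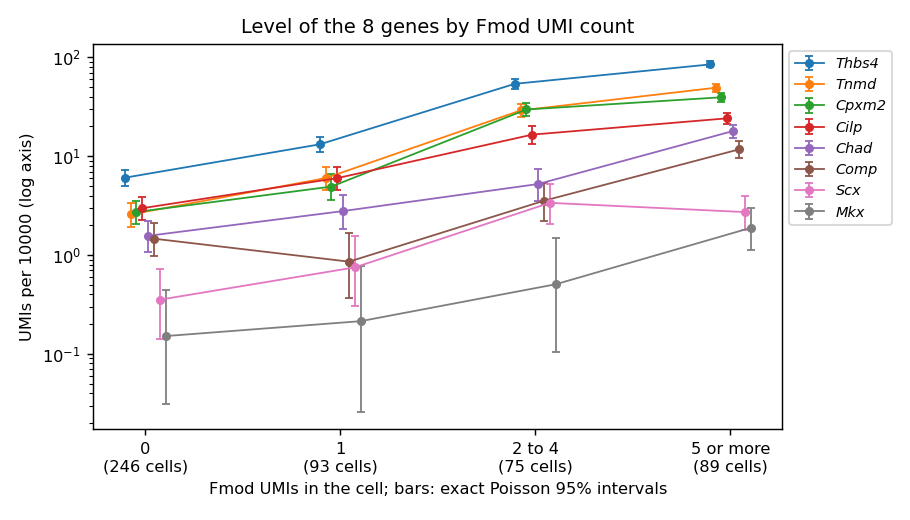
UMIs per 10000 on a log axis for each of the 8 genes in cells with 0, 1, 2 to 4 and 5 or more Fmod UMIs (246, 93, 75 and 89 cells), with exact Poisson 95% intervals. Thbs4 lay on top in all 4 steps, from 6.06 to 84.9, and Comp and Scx were the genes that did not climb at every step.

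Detection was then compared at equal depth, with the UMIs of each cell drawn down to 300 and the 20 cells under that depth left out (8 Fmod+ and 12 Fmod-). The classes were still called from all UMIs. Thbs4 was seen in 54.6% of 249 Fmod+ cells (48.2 to 60.9) and 14.1% of 234 Fmod- cells (9.91 to 19.2), against 68.9% and 21.5% with all UMIs. Tnmd was seen in 43.4% and 8.12%, Cpxm2 in 36.9% and 5.13%, and Cilp in 33.7% and 6.84%. Intervals of Fmod+ and Fmod- cells did not overlap for these 4 genes and Chad, which was seen in 18.9% and 4.70%. For Comp (9.24% and 3.85%), Scx (4.82% and 1.28%) and Mkx (3 and 1 cells) they did overlap.

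Cells with Rgs5 and no Fmod served as the background. Endothelial markers were in 51.2% of them at a level of 34.9 (14.4 in all Fmod- cells), so that the class is not purely perivascular. In these 84 cells, whose median was 532.5 UMIs, Thbs4 had a level of 2.04 (1.08 to 3.48), Cpxm2 1.72, Tnmd 1.41, Chad 1.25, Cilp 0.94, Comp 0.78 and Mkx 0.16 from 1 UMI. Scx had 0 UMIs there, where 3 UMIs would be a level of 0.47. The summed level of 8.30 (6.22 to 10.9) compares with 149 (144 to 154) in cells with Fmod only, a ratio of 18.0 (13.7 to 24.0). At 300 UMIs, 6.25% of 80 such cells had Thbs4 (2.06 to 14.0) and 5.00% had Tnmd (1.38 to 12.3). In the 154 cells with neither Fmod nor Rgs5 these shares were 18.2% (12.4 to 25.2) and 9.74% (5.55 to 15.6), with intervals that overlapped those of the Rgs5-only cells. By the pooled level the cells with neither gene lay above the Rgs5-only cells, at 22.5 against 8.30, a ratio of 2.71 (2.01 to 3.70).

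Split by Rgs5 alone, all 8 genes were at least 2-fold lower in Rgs5+ cells, where 16.6% of 3793 genes were. Mkx, with a ratio of 0.317, rose to 0.556 in an alternative, short of 2-fold. The summed level was 18.6 in Rgs5+ and 101 in Rgs5- cells, a ratio of 0.185 (0.158 to 0.215). Cells with both Fmod and Rgs5 lay between, at 41.4 (34.3 to 49.5), with Thbs4 at 17.6, Tnmd at 7.24 and Cilp at 7.24. Without these 34 cells the ratio of Rgs5+ to Rgs5- cells fell to 0.082. This takes Fmod+ cells out of the Rgs5+ class only, so the fall follows from the choice.

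**Figure D3:**
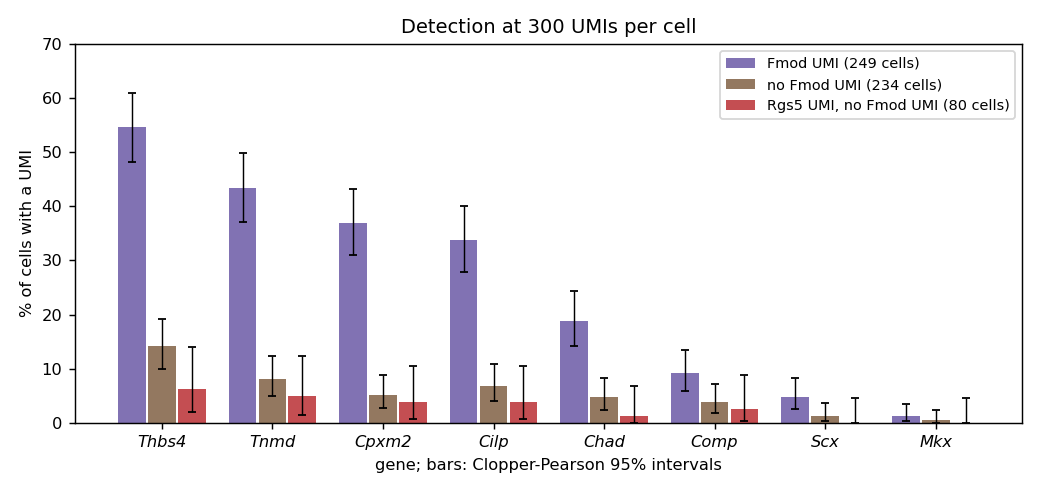
Percent of cells with a UMI of each gene when every cell is drawn down to 300 UMIs, in 249 Fmod+ cells, 234 Fmod- cells and the 80 cells with Rgs5 and no Fmod (a part of the Fmod- cells), with Clopper-Pearson 95% intervals. Thbs4 was seen in 54.6%, 14.1% and 6.25% of them, and Scx and Mkx were in under 5% of every class.

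Other lists differed with this split, and genes of a list are counted as higher or lower at 2-fold. Of the tendon matrix list, without Fmod, 15 of 30 genes with 20 or more UMIs were at least 2-fold higher in Fmod+ cells and 1 was lower, against 6.78% and 9.04% of all genes, with a median log2 ratio of 1.09. Its most abundant genes were Col1a2 (219 and 96.6 UMIs per 10000 in Fmod+ and Fmod- cells), Col1a1 (85.8 and 47.6), Dcn (85.6 and 42.9) and Col3a1 (55 and 42.3), which had ratios of 2.27, 1.80, 1.99 and 1.30. Each of the 8 genes studied had a higher ratio than these 4, but not than the whole list. Cilp2 (13.6), Kera (9.87) and Thbs2 (8.61), named after their values were seen, had ratios above those of most of the 8. Of the TGF-beta and tendon transcription list, 3 of 15 were at least 2-fold higher and 1 was lower, with a median log2 ratio of 0.38. Egr1, an early response transcription factor and the most abundant member of that list, was 15.8 in Fmod+ and 24.9 in Fmod- cells, and Tcf4, Ltbp4 and Tgfbr3 had ratios of 1.30, 0.63 and 1.45. Perivascular markers were lower in 6 of 8 cases, endothelial markers in 6 of 6 and skeletal muscle markers in 10 of 10, the last with a summed level of 6.45 in Fmod+ and 47.3 in Fmod- cells. Without the cells that held 5 or more UMIs of the muscle actin gene Acta1, a choice made after seeing the data, the ratio of the 8 genes was 7.45 (6.67 to 8.34). Osteoblast markers summed to 16.2 in Fmod+ and 33.5 in Fmod- cells, with 2 of 6 genes lower, among them Bglap at 4.28 and 16.1. The fibroblast markers share Dcn, Col3a1 and Dpt with the tendon matrix list. Of them 0 of 10 were at least 2-fold higher and 2 at least 2-fold lower, with a median log2 ratio of -0.59. Gsn (34.4 and 52.8) and Ly6a (9.24 and 13.6) were their most abundant genes outside that list. Of the muscle satellite cell markers 1 of 5 was higher, Chodl at 9.56 and 4.19, and 2 were lower, among them Pax7 at 0.44 and 2.07, with a median of -0.49. Red blood cell markers summed to 19.5 and 37.6 (1 of 4 lower). Adipocyte (1.17 and 1.77), immune (0.89 and 1.01) and Schwann cell markers (0.69 and 0.86) were low in both. The part of cells of these types in the contrast was not tested.

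The genes were found together. With all UMIs, 219 of 257 Fmod+ cells held at least 1 of the 8 and 109 held 4 or more, against 124 and 8 of 246 Fmod- cells. A single cell, from 6 weeks, held all 8. At 300 UMIs, 57.0% of Fmod+ cells (142 of 249, 50.6 to 63.3) held 2 or more, and 8.55% of Fmod- cells (20 of 234, 5.30 to 12.9) did, while among cells with Rgs5 only it was 1 of 80. By time point the share in Fmod+ cells was 51.5%, 64.2% and 56.9% from the earliest to the latest, with overlapping intervals. In the cells with 5 or more Fmod UMIs it was 89.8% (81.5 to 95.2), and in those with 1 it held in 18 of 90 cells (12.3 to 29.8%).

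**Figure D4:**
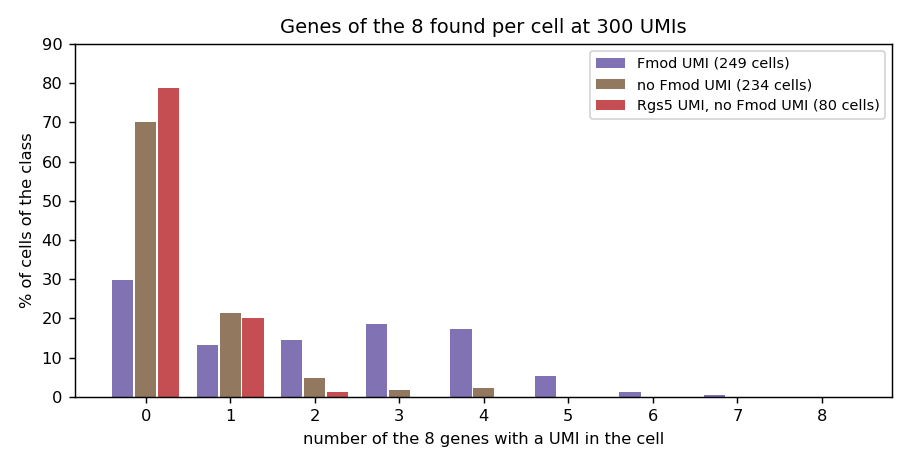
Percent of cells by how many of the 8 genes they held at 300 UMIs, in Fmod+ cells, Fmod- cells and cells with Rgs5 and no Fmod. Most Fmod- cells held none (164 of 234), and Fmod+ cells were spread over 0 to 7 genes, with 106 of 249 at 3 or more.

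Within Fmod+ cells the 4 most abundant genes shared the largest numbers of cells, a count that grows with abundance. Thbs4 and Tnmd shared 133 cells, where the product of their shares gives 104. Comp and Chad shared 40, where it gives 18.4. Of the 151 Fmod+ cells with Tnmd, 88.1% had Thbs4, 70.2% Cilp and 69.5% Cpxm2, and of the 106 without Tnmd these shares were 41.5%, 18.9% and 24.5%. Depth did not differ in that direction, with medians of 778 UMIs with Tnmd and 806.5 without. At 300 UMIs, the highest correlation over the Fmod+ cells was that of Thbs4 and Tnmd, with a Pearson r of 0.52 on ln(1 + UMIs) over 249 cells, followed by Tnmd with Cpxm2 (0.42) and with Cilp (0.40). These values describe cells that share libraries and 1 depth, and carry no test.

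Comp and Chad shared cells as well. Comp was seen in 40 of 80 Fmod+ cells with Chad and in 10.7% of those without, and their correlation was 0.24 over Fmod+ cells at 300 UMIs, higher than that of Comp with any other of the 8. The cells with Comp were deeper, at a median of 1016 UMIs against 743.5. Chad had a higher correlation with Cpxm2, at 0.27, and of the 59 Fmod+ cells with Comp more held Thbs4 (88.1%), Cpxm2 (76.3%) or Tnmd (74.6%) than Chad (67.8%). A single 6-week cell with 3251 UMIs held 24 of the 170 Comp UMIs and 20 of the 260 Chad UMIs, along with 53 of Thbs4, 63 of Fmod and 4 of Mkx, and was the cell with all 8 genes.

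Cells with a factor carried more of the matrix genes. Among the 61 cells with Scx or Mkx, 51 were Fmod+ and 56 held at least 1 of the 6 other genes, whereas 282 of the 442 cells without either factor did. In Fmod+ cells alone, the 6 genes summed to 217 UMIs per 10000 with a factor (206 to 229) and 104 without (99.0 to 108), with Thbs4 at 76.4 and 41.4 and Cpxm2 at 43.7 and 17.2. Tnmd, the known scleraxis target, was in 33 of the 37 Fmod+ cells with Scx (89.2%, 74.6 to 97.0) and in 53.6% of those without (46.8 to 60.4). Cells with a factor were deeper, with medians of 1042 and 736 UMIs among Fmod+ cells, and the part of depth in these shares was not tested. At 300 UMIs only 12 Fmod+ cells still held Scx, 8 of them with Tnmd (66.7%, 34.9 to 90.1, against 42.2%, 35.8 to 48.8, of the others), so that the intervals overlapped at equal depth.

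Most cells with matrix genes held no factor UMI. Of 215 Fmod+ cells with at least 1 of the 6 genes, 47 held a factor, and at 300 UMIs 6.02% of Fmod+ cells (3.41 to 9.74) and 1.71% of Fmod- cells (0.47 to 4.32) held Scx or Mkx. Where found, both factors had a median of 1 UMI, so that cells without them cannot be called negative. Scx and Mkx shared 3 cells, which were 6.82% of the 44 Scx cells and 15% of the 20 Mkx cells. Comp was in 14 of 44 Scx cells (18.6 to 47.6%) and 10 of 20 Mkx cells (27.2 to 72.8%), with intervals that overlapped.

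Over the time points the summed level in all cells differed little. It was 82.0 in the 2-day cells (77.8 to 86.4), 90.5 in the 6-week cells (85.9 to 95.4) and 77.5 in the 13-week cells (72.5 to 82.7). At 13 weeks against 2 days, the comparison within the shared plate, the ratio was 0.945 (0.868 to 1.03) and 0 of 7 genes were past 2-fold, where 6.55% of 2365 genes were higher and 8.46% lower. At 6 weeks against 2 days it was 1.10 (1.02 to 1.19), with 0 of 8 genes past 2-fold, against 8.39% of 2812 genes higher and 4.45% lower. The 6-week ratio rested on 1 cell, since without the cell with all 8 genes it was 1.01 (0.937 to 1.09).

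Single genes differed in direction. Thbs4 stood at 27.3, 35.0 and 30.3 at 2 days, 6 weeks and 13 weeks, and Cpxm2 at 15.7, 11.6 and 17.2, the lowest at 6 weeks. The 13-week to 2-day ratio of Cpxm2 was 1.10 (0.91 to 1.33) and turned to 0.73 (0.56 to 0.93) without the 5% of cells with most UMIs of the 8 genes. Tnmd was 17.8, 17.5 and 14.4, and Cilp 9.87, 11.7 and 7.81. Chad was 6.13, 6.89 and 3.99, with a 13-week to 2-day ratio of 0.65 (0.45 to 0.93) that was 0.90 (0.60 to 1.32) without the 5% of cells with most UMIs of the 8 genes, and Comp 3.21, 5.74 and 2.12. Scx (1.46, 1.40 and 1.10) and Mkx (0.58, 0.64 and 0.51) did not differ beyond counting error.

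Fmod+ cells were then compared between time points on their own. At 6 weeks their summed level was 168 (159 to 177), against 118 (112 to 125) at 2 days and 131 (122 to 141) at 13 weeks. Against 2 days the ratio was 1.42 (1.31 to 1.53) at 6 weeks, and 1.31 (1.21 to 1.42) without the cell with all 8 genes. Of 7 genes with 20 or more UMIs, 1 was at least 2-fold higher at 6 weeks, where 5.36% of 1455 genes were higher and 8.18% lower. This gene was Comp, at 2.09 (1.45 to 3.04), which was 1.47 (0.97 to 2.21) without that cell. Thbs4 had 1.68 (1.47 to 1.92), Cilp 1.49 (1.18 to 1.88) and Tnmd 1.29, while Cpxm2 stood at 0.99 (0.81 to 1.21). Of these, Cilp had 1.01 with read counts, for which no interval is given because reads of 1 molecule are not separate counts. Without the deepest 5% of cells Tnmd had 1.04 (0.85 to 1.26) and Comp 1.10 (0.67 to 1.79). Thbs4 stayed between 1.27, with read counts, and 1.86, with cells weighted equally.

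At 13 weeks the Fmod+ cells showed different signs among the 8. Thbs4 had a ratio to 2 days of 1.34 (1.16 to 1.55) and Cpxm2 one of 1.34 (1.11 to 1.63), and Comp (0.56, 0.30 to 0.99) and Chad (0.67, 0.45 to 0.99) were lower by UMIs. Without the 5% of cells with most UMIs of the 8 genes these ratios were 1.21 (1.01 to 1.44), 1.203 (0.95 to 1.51), 0.63 (0.32 to 1.17) and 0.84 (0.56 to 1.25). With read counts in place of UMIs Comp had 0.957 and Chad 0.951, and without the deepest 5% of cells Thbs4 had 1.15 (0.98 to 1.35). Of 7 genes 0 passed 2-fold, where 5.22% of 1284 genes were higher and 10.7% lower. The summed ratio of 1.11 (1.02 to 1.21) turned to 0.996 without Thbs4 and to 0.990 without the deepest 5% of cells. In the make-up of the 8, Comp and Chad together gave 11.7% (10 to 13.5), 12.9% (11.1 to 14.9) and 6.68% (5.06 to 8.63) of the UMIs of Fmod+ cells from the earliest to the latest time point, and Cpxm2 gave 18.9%, 13.1% and 22.9%. In Fmod- cells Comp and Chad gave 6.98% (2.60 to 14.6), 22.1% (16.0 to 29.2) and 17.1% (10.5 to 25.7), and Cpxm2 22.1%, 10.4% and 17.1%.

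**Figure D5:**
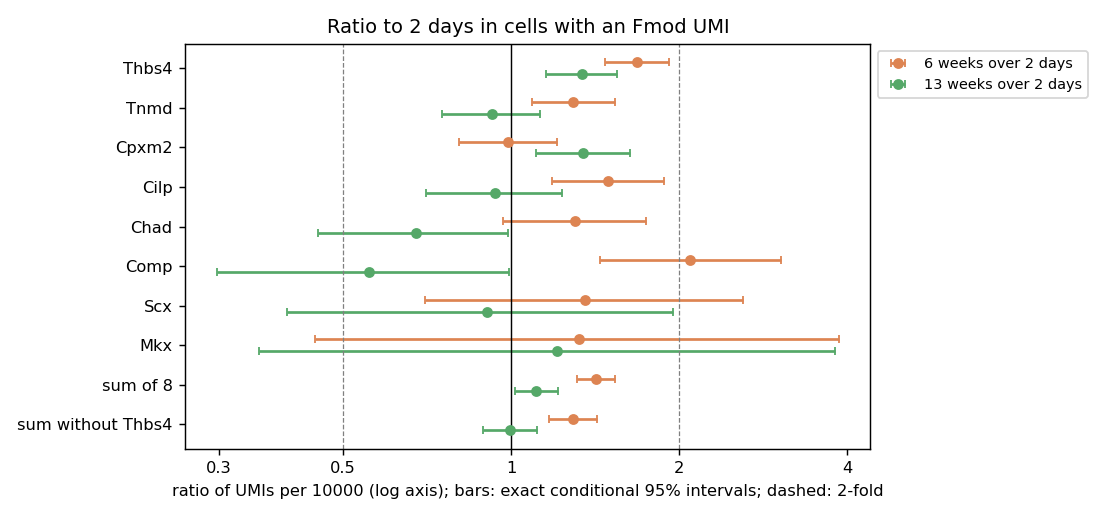
Ratio of UMIs per 10000 to 2 days in Fmod+ cells on a log axis, for each of the 8 genes, their sum and the sum without Thbs4, with exact conditional 95% intervals, and dashed lines at 2-fold. The whole interval lay above 1 for Thbs4, Tnmd, Cilp, Comp and both sums at 6 weeks. For Tnmd and Comp it did not without the deepest 5% of cells, and Cilp had 1.01 with read counts. At 13 weeks it lay above 1 for Thbs4, Cpxm2 and the sum of 8, and below 1 for Comp and Chad. None of these 13-week intervals stayed on its side of 1 in every alternative.

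The tendon matrix list gave another count over the same interval. Of 31 tested genes of the tendon matrix list, Fmod included, 9 were at least 2-fold lower at 13 weeks than at 2 days and 0 were higher, beside 0 of 7 of the genes studied and 8.46% of all genes. This difference in counts was not tested. In the 2-day, 6-week and 13-week cells Col1a1 had 69.1, 102 and 24.0 UMIs per 10000, Col1a2 181, 206 and 86.3, Col3a1 73.7, 43.0 and 22.6, and Dcn 71.1, 73.9 and 50.4. Fmod had 35.5, 29.8 and 22.3. Over the same cells the endothelial markers summed to 3.10, 8.68 and 15.4, and the perivascular markers to 23.1, 32.3 and 43.2. The osteoblast markers summed to 26.1, 36.8 and 3.56, with 3 of 5 tested genes at least 2-fold lower at 13 weeks than at 2 days, and were in 23.8%, 92.6% and 20.3% of cells. Bglap, the osteocalcin gene, had 14.8, 10.4 and 0.76. The bone matrix genes Spp1 (1.17, 10.8 and 0.93) and Ibsp (1.17, 8.74 and 0.34) were highest at 6 weeks. Over all time points Spp1 had 201 UMIs in 127 cells and Ibsp 161 in 99, so a marker UMI does not make a cell an osteoblast. Of the fibroblast markers 4 of 10 were at least 2-fold lower at 13 weeks, Col3a1 and Dpt of the tendon matrix list among them, and 1 was higher. Gsn had 41.5, 55.2 and 27.3 and Ly6a 9.93, 11.8 and 12.1. The part of these lists in the differences over time was not tested.

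A few Fmod- cells carried the genes as well. Of 246, 43 held 2 or more, 15 held 3 or more and 8 held 4 or more, and the 8 came from all 3 time points (1, 4 and 3 cells). Mgp was in 8 of these 8 cells (63.1 to 100%) and in 61 of the 122 Fmod- cells with none of the genes (40.8 to 59.2%). Col1a2 was in 8 of 8 and 97 of 122 cells (71.3 to 86.3%), and Rgs5 in 0 of 8 (up to 36.9%) and 49 of 122 (31.4 to 49.4%), both with intervals that overlapped. Depth was 795.5 UMIs at the median in the 8 cells and 619.5 in the 122.

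The genes whose pattern over cells was most like the summed 8 were then ranked by their Pearson correlation at 300 UMIs, as a mean of the 3 time points (175, 182 and 126 cells), among 2615 genes seen in 25 or more cells. Fmod came first with a mean r of 0.66 (0.67, 0.67 and 0.63 at 2 days, 6 weeks and 13 weeks), against a median of -0.01 over all candidates. It was followed by Mgp (0.54), Col1a2 (0.53), Sparc (0.45), Col1a1 (0.40), Fn1 (0.39), Dcn (0.39), Ogn (0.38), Serpinf1 (0.38) and Abi3bp (0.38). Without the drawing down to 300 UMIs, 8 of these 10 stayed among the first 10. All points share libraries and depth, and no test was made.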

How the data were processed

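Single Tom+ periosteal cells were sorted into plates and sequenced with Drop-seq chemistry. The deposited matrices hold counts, with UMI counts per gene and well as the main values and read counts as an alternative. Per the submitters' processing notes, the authors used bcl2fastq 2.18.0.12, Picard 2.9.3, Drop-seq tools and STAR 2.5.4a with the mm10 genome. The study's methods name another version of Picard. Wells without a time point (168) were not used. Of 600 wells, 503 held 200 or more genes and were kept. No doublet caller was run, and transfer of transcripts between wells was not tested.

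UMIs were pooled over the cells of a class and divided by their pooled total (Poisson intervals, exact conditional intervals for ratios, Clopper-Pearson intervals for shares). Folds were taken for genes with 20 or more UMIs, without normalization beyond depth. For equal depth, 300 UMIs were drawn from each cell with a fixed seed. No test was made, as every time point was 1 pool of mice. The calculations were tested on simulated data. Python 3.11.15, numpy 2.4.6, pandas 2.3.3, scipy 1.17.1 and matplotlib 3.10.9 were used.

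The 8 genes and all lists were chosen with earlier results of these data known. Other genes named are Fmod and Rgs5, up to 4 genes with most UMIs of a list, and the 10 genes most correlated with the summed 8. Outside this rule, Mgp and Col1a2 in Fmod- cells, Acta2, Acta1, Cilp2, Kera, Thbs2, Dpt, overlapping neighbors and the chondrocyte genes at 0 were named after their values were seen. Alternatives were other minimums of genes and depth, read counts, other class rules, cells weighted equally, the deepest cells or each time point left out, and the sum without Thbs4.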

Additional observations from a re-analysis of the deposited data

How the results depend on the processing

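The summed ratio of Fmod+ to Fmod- cells was 11.6 with read counts, 11.1 with classes called from 2 or more UMIs, 4.79 with classes called at 300 UMIs and 5.45 without the 5% of cells with most UMIs of the 8 genes, and 7.46 to 7.86 when each time point was left out. The Rgs5 ratio was 0.148 at 300 genes per cell, 0.0987 with read counts, 0.0806 from 2 or more UMIs, 0.157 with classes at 300 UMIs, 0.218 without the deepest 5% of cells, 0.228 with cells weighted equally, 0.265 without the 5% richest in the 8 genes and 0.0822 without cells of both classes, with 0.165 to 0.196 when each time point was left out. At 13 weeks over 2 days it was 1.07 with read counts and 0.862 without Thbs4 in all cells, and in Fmod+ cells 1.25 with read counts and 1.01 without the 5% richest, and the direction turned at 0.990 without the deepest 5%, 0.998 with cells weighted equally and 0.996 without Thbs4. At 6 weeks over 2 days it turned to 0.996 without the deepest 5% in all cells, and was 1.01 without Thbs4 and 1.01 without the 1 cell with most UMIs of the 8. In Fmod+ cells it was 1.28 with read counts, 1.27 from 2 or more UMIs, 1.23 without the deepest 5%, 1.29 without the 5% richest, 1.55 without cells of both classes, 1.29 without Thbs4 and 1.31 without that 1 cell. The share of Fmod+ cells with 2 or more of the 8 genes was 78.0% from 2 or more UMIs, 70.1% with classes at 300 UMIs and 64.0% at 500 UMIs (53.6% to 61.0% without each time point), that of Fmod- cells 12.9% with classes at 300 UMIs (7.51% to 9.88%), and that of Fmod+ cells with Scx or Mkx 13.2% at 500 UMIs (4.35% to 8.22%). The cause was not tested. Leaving out that 1 cell or the cells with 5 or more Acta1 UMIs was chosen after seeing the data. For the Rgs5 ratio, leaving out cells of both classes takes Fmod+ cells out of the Rgs5+ class only. No paired analysis was possible because each time point was 1 pool with no replicate number of its own. With a median of 727 UMIs per cell, a missing UMI of Scx or Mkx does not show that a cell lacks the transcript.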
